A study of Mus musculus with 5 samples.

Results

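Collagens were examined in the colons of fetal mice with and without floxed HNF4 alleles on both chromosomes. The collagen genes were taken as all probe sets annotated to a single symbol made of Col, a type number, the letter a and a chain number. This rule gave 58 probe sets for 36 genes, out of 22626 probe sets tested and 12393 genes with a single symbol. They were grouped by type into 9 fibrillar collagens (types I, II, III, V and XI), 8 basement membrane collagens (types IV, XV and XVIII) and 19 others. The genes lie on 15 chromosomes. The RefSeq table of mouse genes lists 44 such genes, and the other 8 (Col6a4, Col6a5, Col6a6, Col8a2, Col23a1, Col24a1, Col27a1 and Col28a1) were not analysed here.

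The HNF4 null group held 3 embryos of genotype HNF4LoxP/LoxP FoxA3Cre (null_59, null_60 and null_426), and the control group held 2 of genotype HNF4LoxP/+ FoxA3Cre (CONTROL_406 and CONTROL_421). All 5 were at stage E18.5, and 1 array was made for each from total RNA of fetal colon. The controls carried the same Cre transgene and 1 floxed allele, so both groups share the transgene and the control group is heterozygous. Foxa3, after which the Cre line is named, encodes a forkhead transcription factor of endoderm-derived tissue, and the cells in which the Cre acted are not given in the labels. HNF4 is a nuclear receptor family expressed in the epithelium of the gut. The comparison sets embryos with 2 floxed alleles against embryos with 1.

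Collagens are built of triple helices of 3 alpha chains, and each type has its own chains. Fibrillar collagens form the rope-like fibrils of the submucosa and serosa, whereas type IV forms the sheet-like network of the basement membranes under the epithelium and around smooth muscle cells, nerves and vessels. In the gut wall they are made mainly by fibroblasts, smooth muscle and endothelium, and only in part by the epithelium. The RNA came from the whole colon, so fewer cells of a type and less RNA per cell cannot be told apart in any value given here.

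Hnf4a, a gene of the HNF4 family, did not pass the test. Of 4 Hnf4a probe sets, the one with the highest signal had intensities of 649.8, 746 and 723 in null_59, null_60 and null_426, against 945 and 991 in CONTROL_406 and CONTROL_421 (log2 difference -0.35, adjusted p = 0.719 by limma). Of the other 3, 1 had an unadjusted p under 0.05 (log2 difference -0.55, adjusted p = 0.603), and the remaining pair had log2 differences of 0.14 and 0.19. Which HNF4 gene is floxed, and which of its exons lie between the loxP sites, is not given in the labels. A probe set outside those exons would check nothing. The median intensity per array was 123.66 to 135.154, and the arrays correlated with each other at 0.946 to 0.974 over all probe sets. The 3′ Gapdh control probe set divided by the 5′ one gave 1.47 in CONTROL_421 and between 0.767 and 0.895 on the other 4 arrays. The same ratio for beta-actin ran from 1.44 in CONTROL_406 to 1.83 in null_60, with 1.76 in CONTROL_421. All 6 colon epithelium markers that could be measured had a mean signal at or above the median of all probe sets, and all 6 lay lower in the null group. Of these, Epcam, Vil1, Cdx1 and Car1 had an unadjusted p under 0.05, as did 4.33% of all probe sets in that direction, and none passed the adjusted threshold. The summed intensity of the 6 markers was 2966.84 to 4063.74 in null colons and 5284.69 to 5635.52 in control colons.

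No collagen probe set passed the test between HNF4 null and control colons. Of the 58 collagen probe sets, 0 passed an adjusted p of 0.05 (limma, Benjamini-Hochberg over all 22626 probe sets), where 0.124% of all probe sets (28) passed. At an unadjusted p under 0.05, 1 collagen probe set (1.72%) was called, where 7.15% of all probe sets (1618) were. That probe set belonged to Col22a1 and was higher in the null group, a direction in which 2.82% of all probe sets were called. No collagen probe set was called lower, a direction in which 4.33% of all were. The share of collagen probe sets at an unadjusted p under 0.05 was thus below that of the whole array. Without CONTROL_421 the count at an unadjusted p under 0.05 was 4 (6.90%, against 5.29% of all probe sets) and without CONTROL_406 it was 2 (3.45%, against 10.1% of all). The adjusted count was 0 whichever array was left out.

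The 3 groups of collagens had medians close to 0. Each gene was represented by its brightest probe set, the one with the highest mean over the 5 arrays, and differences are null minus control on the log2(intensity + 16) scale after quantile normalisation. The 9 fibrillar genes had a median difference of 0.01, between -0.14 and 0.29, with 5 above and 4 below 0. The 8 basement membrane genes had a median of 0.04, between -0.16 and 0.33, with 4 on each side. The 19 other collagens had a median of 0.04, between -0.33 and 0.46, with 12 above and 7 below. The median over all 12393 genes was 0.02. The size of the difference, regardless of sign, had a median of 0.13 over collagen genes and 0.15 over all genes.

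The 95% confidence interval of the difference lay within a 2-fold change in both directions for 36 of 36 collagen genes by their brightest probe set, and for 94.3% of all genes. It lay within a 1.5-fold change for 7 of 9 fibrillar, 4 of 8 basement membrane and 11 of 19 other collagens. The probe set Col5a1 1416741_at, which does not represent its gene, was the 1 of 58 whose interval passed 2-fold. With 5 arrays, smaller differences were left undecided for many of these genes. The forest plot of the 36 genes shows these intervals.

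**Figure D1:**
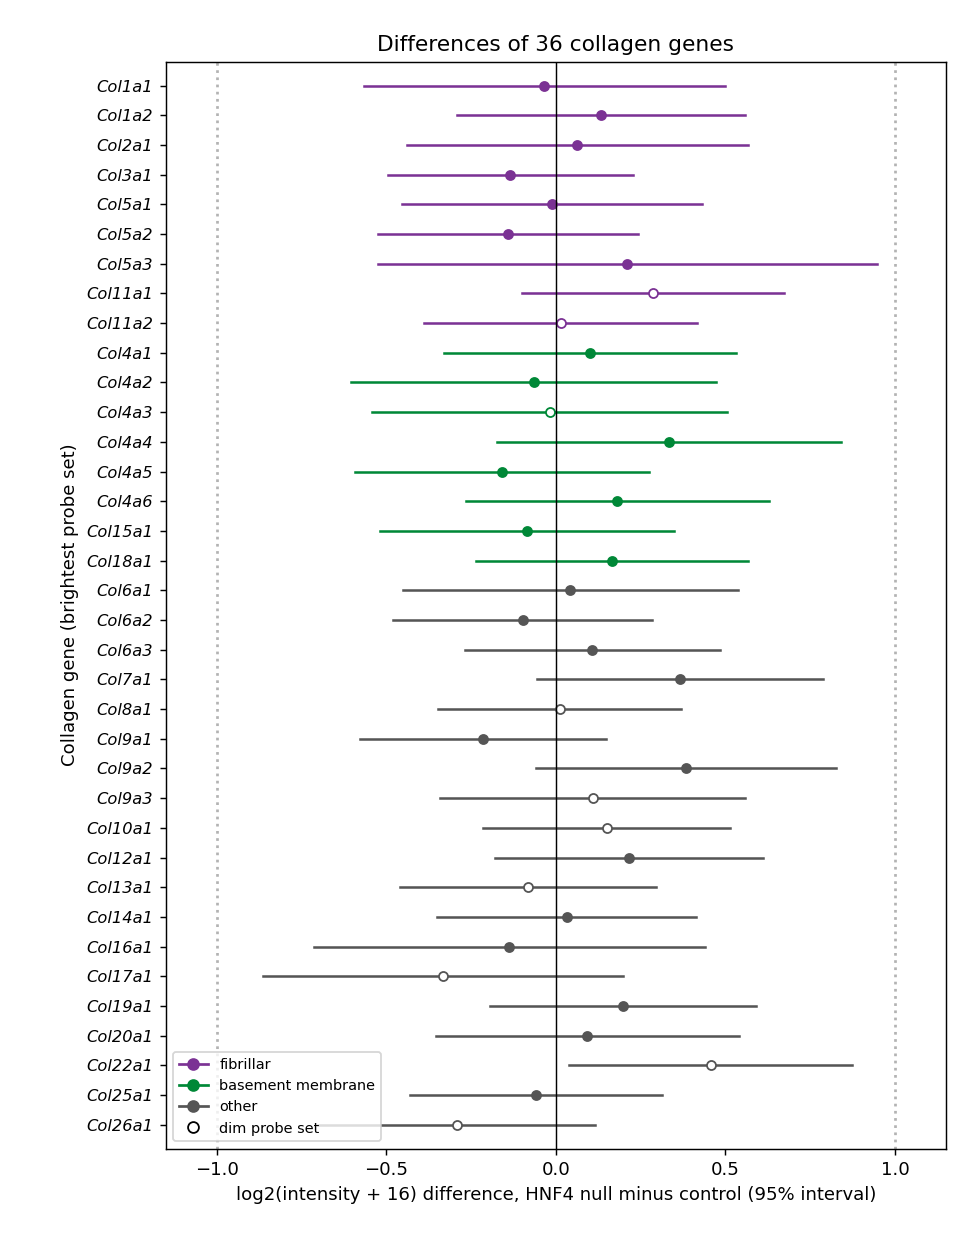
Differences between HNF4 null and control colons for 36 collagen genes, by group. The x axis is the difference null minus control in log2(intensity + 16) after quantile normalisation, points are limma estimates, bars are 95% confidence intervals, open points are genes with a mean signal below the median of all probe sets, and dotted lines mark a 2-fold change. All 36 intervals lie between the dotted lines, and only that of Col22a1 does not cross 0.

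Type I collagen is the main collagen of connective tissue fibrils and is made of chains encoded by Col1a1 and Col1a2. By its brightest probe set (1423669_at), Col1a1 had deposited intensities of 1853, 1867 and 1005 in null_59, null_60 and null_426, against 1675 and 1624 in CONTROL_406 and CONTROL_421. Array null_426 was low, the other null arrays were above both controls, and the groups overlapped. The means were 1575 ± 494 in null colons (SD, n = 3) and 1649 ± 35.8 in control colons (SD, n = 2), and the log2 difference was -0.03 ± 0.24 (SE; 0.977-fold, 95% interval 0.676 to 1.41, adjusted p = 0.98). The second Col1a1 probe set (1455494_at) read 632, 647 and 679 in the null arrays, against 441 and 721 in CONTROL_406 and CONTROL_421. It did not show the low value of null_426, and its log2 difference was 0.26 (adjusted p = 0.816). That difference was -0.09 without CONTROL_406, and 0.61 without CONTROL_421 with an unadjusted p of 0.0207 and an adjusted p of 0.870.

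Col1a2 had 2232, 2189 and 1524 in null_59, null_60 and null_426, against 2100.4 and 1705 in CONTROL_406 and CONTROL_421, by its brightest probe set (1450857_a_at). Again null_426 was the lowest array and the groups overlapped, with a log2 difference of 0.13 ± 0.19 (SE; 1.10-fold, 95% interval 0.817 to 1.47, adjusted p = 0.891). Its other probe set (1423110_at) had 1014, 1109 and 693 in the null arrays, against 1189.8 and 1163 in CONTROL_406 and CONTROL_421. Here all 3 null arrays were below both controls, yet the log2 difference of -0.27 had an adjusted p of 0.792. The 2 probe sets of Col1a2 thus differed in sign.

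Type III collagen, a homotrimer of the Col3a1 chain, is the fibril collagen of distensible organs. Col3a1 (1427883_a_at) had 4179.9, 4167 and 3759 in null_59, null_60 and null_426, against 4517 and 4366 in CONTROL_406 and CONTROL_421. All 3 null arrays were below both controls. The means were 4036 ± 239 in null colons (SD, n = 3) and 4442 ± 107 in control colons (SD, n = 2), and the log2 difference was -0.13 ± 0.16 (SE; 0.911-fold, 95% interval 0.709 to 1.17, adjusted p = 0.870). The second probe set (1427884_at) had 494, 605 and 393 in the null arrays, against 599 and 532 in the controls. Its groups overlapped, with a log2 difference of -0.16.

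Upstream sequence is shown for Col1a2 and Col3a1, as the fibrillar chains with a probe set whose groups did not overlap in the null-below-control direction, and for Col7a1 and Col9a2, as the members with a mean signal at or above the median whose null arrays were all above the controls and whose differences were the largest in that direction. Each run is the 120 bases before the RefSeq start site of the gene (GRCm38.p6), 5′ to 3′ on the gene's strand, and capitals mark a match on either strand to the CCAAT motif, the TATAAA motif or the GGGCGG motif. The windows are chr6:4505498-4505617 (plus strand) for Col1a2, chr1:45311418-45311537 (plus strand) for Col3a1, chr9:108953466-108953585 (plus strand) for Col7a1 and chr4:121039446-121039565 (plus strand) for Col9a2.
Col1a2: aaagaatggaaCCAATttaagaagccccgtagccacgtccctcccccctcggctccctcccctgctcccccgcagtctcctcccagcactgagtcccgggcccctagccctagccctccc
Col3a1: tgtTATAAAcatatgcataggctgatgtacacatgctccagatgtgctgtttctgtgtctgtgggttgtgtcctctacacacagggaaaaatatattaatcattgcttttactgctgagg
Col7a1: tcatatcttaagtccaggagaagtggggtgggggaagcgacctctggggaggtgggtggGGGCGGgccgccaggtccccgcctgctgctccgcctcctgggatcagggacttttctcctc
Col9a2: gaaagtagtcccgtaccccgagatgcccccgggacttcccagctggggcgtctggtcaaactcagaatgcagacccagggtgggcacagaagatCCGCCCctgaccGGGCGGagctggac
The Col1a2 window held CCAAT at 109 to 105 bases before the start, and the Col3a1 window held TATAAA at 117 to 112 bases. Col7a1 held GGGCGG at 61 to 56 bases, and Col9a2 held it at 14 to 9 bases and, on the minus strand, at 26 to 21 bases. A search of the 250 bases before the start on both strands covered 30 promoters of the 27 collagen genes matched in the RefSeq promoter table. CCAAT was in 12 of 30 (40.0%), against 33.8% of all 32851 promoters in the table. GGGCGG was in 16 of 30 (53.3%), against 32.7% of all. TATAAA was in 5 of 30 (16.7%), against 12.4% of all. No match in the windows shown shares bases with another, and a match is a description of the sequence only.

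Type V collagen is incorporated into type I fibrils and limits their diameter. Col5a1 (1416740_at) had 927, 944 and 623 in null_59, null_60 and null_426, against 837 and 879 in CONTROL_406 and CONTROL_421. Here too null_426 was the lowest and the groups overlapped, with a log2 difference of -0.01 (0.993-fold, 95% interval 0.731 to 1.35). Its second probe set (1434479_at) had 461 to 657 in null and 538 to 618 in control arrays, a log2 difference of 0.06. The third (1416741_at) had 328, 313 and 124 in the null arrays, against 229 and 111 in CONTROL_406 and CONTROL_421. In this probe set 1 array of each group was low, and its log2 difference of 0.46 (1.37-fold, 95% interval 0.736 to 2.56, adjusted p = 0.820) was the farthest from that of the gene's brightest probe set. It was 0.03 without CONTROL_421, 0.88 without CONTROL_406, 0.21 without null_59, 0.27 without null_60 and 0.91 without null_426 (unadjusted p = 0.0119, adjusted p = 0.869 for the last).

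Col5a2 (1422437_at) had 811, 877 and 646 in null_59, null_60 and null_426, against 959 and 843 in CONTROL_406 and CONTROL_421. The lowest value was again that of null_426, with a log2 difference of -0.14 by this probe set and 0.05 by the other (1450625_at). Col5a3 encodes a chain of type V with a more restricted distribution. It had 147, 109 and 211 in the null arrays by 1425984_at, against 84.2 and 186 in CONTROL_406 and CONTROL_421. Its highest array was null_426, the groups overlapped, and the log2 difference was 0.21 by this probe set and -0.02 by the other (1419703_at).

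The remaining fibrillar chains belong to types II and XI, known from cartilage. Col2a1 had 140.4 to 185 in null arrays and 122 to 196 in control arrays, a log2 difference of 0.06. Col11a1 and Col11a2 had mean signals below the median of all probe sets. Col11a1 (1418599_at) had 54.0 to 75.7 in null arrays and 42.0 to 52.2 in control arrays, with no overlap and a log2 difference of 0.29, and its unadjusted p of 0.128 was the smallest of the fibrillar genes. Col11a2 had 52.9 to 55.5 in null and 38.4 to 62.6 in control arrays. None of the 8 cartilage markers (Sox9, Acan, Comp, Matn1, Matn3, Cnmd, Hapln1 and Chad) reached the median signal of all probe sets, and their summed intensity was 450.1 to 536 in null and 414 to 447 in control arrays.

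**Figure D2:**
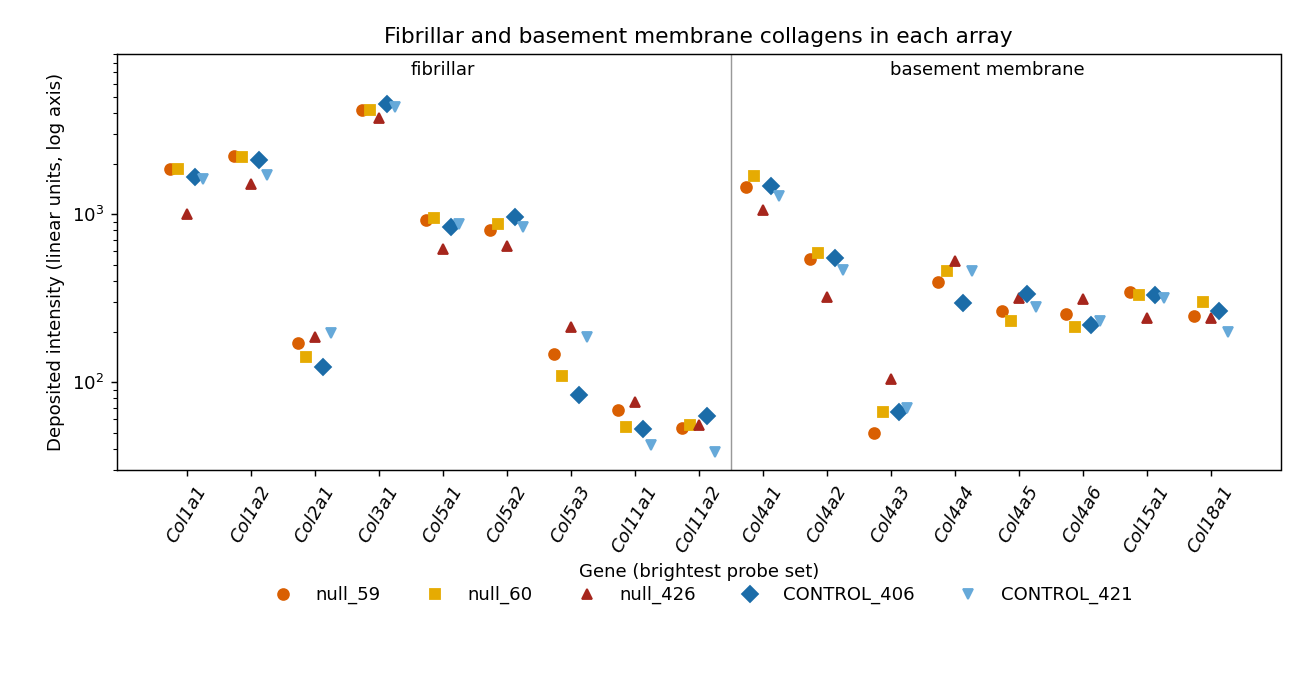
Deposited intensity of the 17 fibrillar and basement membrane collagen genes on each of the 5 arrays, by the brightest probe set of each gene. The y axis is intensity on a log scale, 3 colours of point mark the HNF4 null arrays and 2 the control arrays, and heights of different genes are not comparable because their probes differ. Null and control points overlap in 15 of the 17 genes and are apart in Col3a1 (3759 to 4179.9 in null, 4366 to 4517 in control) and Col11a1 (54.0 to 75.7 in null, 42.0 to 52.2 in control).

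Col4a1 and Col4a2 encode the chains of the type IV network found in nearly all basement membranes. Col4a1 (1452035_at) had 1453, 1701 and 1059.7 in null_59, null_60 and null_426, against 1475 and 1281 in CONTROL_406 and CONTROL_421. The null arrays held both the highest and the lowest value, and the log2 difference was 0.10 ± 0.19 (SE; 1.07-fold, 95% interval 0.795 to 1.45). The second Col4a1 probe set (1426348_at) had 992 to 1397 in null and 876 to 1276 in control arrays, a log2 difference of 0.29, with an unadjusted p of 0.186. This difference was 0.05 without CONTROL_421, and 0.53 without CONTROL_406 with an unadjusted p of 0.0497 and an adjusted p of 0.496. Col4a2 (1424051_at) had 543, 587 and 322 in null_59, null_60 and null_426, against 545 and 465 in CONTROL_406 and CONTROL_421. The pattern over the arrays was that of Col4a1, with null_60 highest and null_426 lowest, and the log2 difference was -0.07 (0.956-fold, 95% interval 0.658 to 1.39).

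The other type IV chains form networks in specialised basement membranes, such as those of the kidney glomerulus for the products of Col4a3, Col4a4 and Col4a5 and those of smooth muscle for Col4a5 and Col4a6. Col4a4 had 396, 460.2 and 526 in null_59, null_60 and null_426, against 298 and 458 in CONTROL_406 and CONTROL_421. CONTROL_406 was low and the groups overlapped, and the log2 difference of 0.33 was the largest of the basement membrane genes (unadjusted p = 0.171, adjusted p = 0.783). It was 0.02 without CONTROL_406, and 0.64 without CONTROL_421 with an unadjusted p of 0.0248 and an adjusted p of 0.882. Col4a3 had 49.8 to 105 in null and 66.3 to 70.2 in control arrays, below the median signal of all probe sets. Col4a5 had 229.7 to 318 in null and 281 to 334 in control arrays (log2 difference -0.16), and its other probe set gave -0.15. Col4a6 had 213 to 311 in null and 219 to 232 in control arrays (log2 difference 0.18), and its other probe set gave 0.16.

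Types XV and XVIII link basement membranes to the matrix beneath them, and the type XVIII chain carries endostatin at its end. Col15a1 had 239 to 346 in null arrays and 319 to 328 in control arrays, a log2 difference of -0.08. Col18a1 had 241 to 298 in null and 198 to 266 in control arrays by its brightest probe set (log2 difference 0.17). By the second (1426955_at) it had 239 to 259 in null and 204 to 238 in control arrays, which did not overlap (log2 difference 0.15, adjusted p = 0.848).

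Among the other collagens, type VI forms beaded filaments next to basement membranes and around muscle. Col6a1 had 1377, 1561 and 900.5 in null_59, null_60 and null_426, against 1521 and 1096 in CONTROL_406 and CONTROL_421. One null array was the highest and another the lowest, and the log2 difference was 0.04 (1.03-fold, 95% interval 0.732 to 1.45). Col6a2 had 1366 to 1795 in null and 1783 to 1919.6 in control arrays (log2 difference -0.10), and its second probe set gave -0.03. Col6a3 had 925 to 1230.2 in null and 1030.1 to 1149.8 in control arrays (log2 difference 0.11). The lowest null value of all 3 genes was that of null_426.

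The 2 members with the largest differences among those whose signal reached the median of all probe sets were Col9a2 and Col7a1. Col9a2 encodes a chain of type IX, which sits on the surface of cartilage fibrils. It had 945, 923 and 1147 in null_59, null_60 and null_426, against 853 and 771 in CONTROL_406 and CONTROL_421. All 3 null arrays were above both controls. The means were 1005 ± 123 in null colons (SD, n = 3) and 812 ± 57.8 in control colons (SD, n = 2), and the log2 difference was 0.38 ± 0.20 (SE; 1.3-fold, 95% interval 0.961 to 1.77, unadjusted p = 0.0812, adjusted p = 0.733). It did not pass the threshold. It was 0.23 without null_426, and without null_60 it was 0.49 with an unadjusted p of 0.0417 and an adjusted p of 0.515.

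Type VII collagen forms the anchoring fibrils that fasten an epithelial basement membrane to the stroma. Col7a1 had 425, 437 and 496 in null_59, null_60 and null_426, against 315 and 399 in CONTROL_406 and CONTROL_421. The null arrays again lay above both controls, with a log2 difference of 0.37 ± 0.19 (SE; 1.29-fold, 95% interval 0.963 to 1.73, unadjusted p = 0.0808, adjusted p = 0.733). It was 0.18 without CONTROL_406 and 0.54 without CONTROL_421, where its unadjusted p was 0.0379. Col9a2 and Col7a1 were named for the signal of their probe sets, and their upstream sequence was shown for their difference.

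Col22a1, which encodes a chain known from the junctions of muscle and tendon, was the collagen gene with an unadjusted p under 0.05. Its brightest probe set (1453084_s_at) had 114, 159.5 and 160.4 in null_59, null_60 and null_426, against 99.3 and 92.8 in CONTROL_406 and CONTROL_421. The null arrays were all above the controls, and the mean signal was below the median of all probe sets. The log2 difference was 0.46 ± 0.19 (SE; 1.37-fold, 95% interval 1.03 to 1.83, unadjusted p = 0.0355, adjusted p = 0.678), so it did not pass the threshold. Of the fits with 1 array left out, its unadjusted p stayed under 0.05 in the one without null_59, where the difference was 0.60. The second Col22a1 probe set (1429280_at) had 11.4 to 42.9 in null and 19.4 to 28.8 in control arrays, a log2 difference of 0.04. The summed intensity of 6 skeletal muscle markers was 716.7 to 783 in null and 709 to 822 in control arrays.

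The other collagens that lie on fibrils, or span the cell membrane, or form short-chain networks were described by their ranges. Col14a1, a fibril-associated collagen of soft connective tissue, had 252 to 291 in null and 243 to 304 in control arrays (log2 difference 0.03, and 0.11 by its second probe set). Its fibril-associated relatives Col12a1, Col16a1, Col19a1 and Col20a1 had log2 differences of 0.22, -0.14, 0.20 and 0.09. The transmembrane chains Col13a1, Col17a1 and Col25a1 had -0.08, -0.33 and -0.06, and the network-forming Col8a1 and Col10a1 had 0.01 and 0.15. Of these, Col17a1, a chain of the hemidesmosomes of stratified epithelia, was low on all arrays, with 16.9 to 33.8 in null and 23.0 to 38.6 in control arrays. Its difference was -0.02 without CONTROL_421, and -0.65 without CONTROL_406 with an unadjusted p of 0.0333 and an adjusted p of 0.432. Col26a1 had 57.0 to 85.2 in null and 80.2 to 90.2 in control arrays (log2 difference -0.29).

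The null and control arrays were fully separated in 11 of the 58 collagen probe sets after normalisation. All 3 null arrays were above both controls in 6 (10.3%), where 12.0% of all probe sets were, and below both in 5 (8.62%), where 11.6% of all were. The 6 were of Col7a1, Col9a2, Col10a1, Col11a1, Col18a1 and Col22a1, and the 5 were of Col1a2, Col3a1, Col9a1, Col9a3 and Col26a1. The shares are near those of the whole array. With 1 array fewer, more sets are separated by construction, and the count over both directions was 13 without null_59 (22.4%, against 33.0% of all probe sets) and 20 without null_60 (34.5%, against 42.3%). It was 27 without null_426 (46.6%, against 35.0%), 23 without CONTROL_406 (39.7%, against 55.8%) and 24 without CONTROL_421 (41.4%, against 50.7%).

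Several genes gave different signs by their different probe sets. Of 36 genes, 17 had 1 probe set and 19 had 2 or 3, and in 8 of the 19 the probe sets lay on both sides of 0. These were Col1a1, Col1a2, Col5a1, Col5a2, Col5a3, Col9a1, Col9a3 and Col19a1. The gap between the highest and lowest difference of a gene had a median of 0.19 over the 19 genes, and it was largest for Col5a1 at 0.47. Col9a1 had 194 to 218 in null and 237 to 251 in control arrays by 1421381_a_at (log2 difference -0.21, no overlap), and 28.2 to 50.2 in null and 25.1 to 29.4 in control arrays by 1428571_at (0.14). Col9a3 had log2 differences of 0.11, -0.28 and 0.06 by 3 probe sets whose mean signals were all below the median. Col19a1 had 131 to 172 in null and 123 to 128 in control arrays by 1430676_at (0.20), and 43.9 to 71.5 in null and 51.5 to 59.6 in control arrays by 1421698_a_at (-0.01).

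The null embryos differed among themselves in many collagens. The SD within the null group had a median of 0.21 over the 36 collagen genes on the log2 scale, and that within the control group 0.10. Over all genes the medians were 0.18 within the null and 0.14 within the control group. Array null_426 was often the extreme, as the plot of each gene's deviation by array shows. It held the lowest of the 5 values in 11 of the 26 collagen genes with a mean signal at or above the median (42.3%, against 26.3% of 7411 such genes on the array) and the highest in 10 of them (38.5%, against 31.5%). This array and the types named next were singled out after their values were seen, so no test is given.

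The chains of types I, III, V and VI were mostly low in null_426. Of these 9 genes, 8 were lower in null_426 than in both other null arrays. In 7 of the 9 it was the lowest of all 5 arrays, as it was in 23.5% of all genes. The share of all genes or probe sets below both other null arrays was not computed. On the log2 scale, null_426 minus the mean of null_59 and null_60 was -0.73 for Col1a1, -0.39 for Col1a2, -0.17 for Col3a1, -0.47 for Col5a1, -0.27 for Col5a2, -0.53 for Col6a1, -0.24 for Col6a2 and -0.22 for Col6a3. The exception, Col5a3, was higher in null_426 by 0.67. Over all 17 probe sets of these genes, 14 were below both other null arrays in null_426 and 3 above. Without null_426, the null minus control difference was 0.21 for Col1a1 and 0.15 for Col5a1. The summed intensity of the 9 fibrillar genes was 10443.5, 10403.5 and 8084.57 in null_59, null_60 and null_426, against 10409.7 and 9879.76 in CONTROL_406 and CONTROL_421.

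The type IV chains were split over the same array. Col4a1 and Col4a2, which are neighbours on chromosome 8, were lower in null_426 than in the mean of the other null arrays by log2 values of -0.42 and -0.73. Col4a3 and Col4a4, neighbours on chromosome 1, were higher by 0.63 and 0.37, and Col4a5 and Col4a6, neighbours on the X chromosome, by 0.40 and 0.44. The second probe sets of Col4a5 and Col4a6 did not show this: with 211, 231 and 191 for Col4a5 (1425476_at) and 186, 199 and 167 for Col4a6 (1421007_at) in null_59, null_60 and null_426, null_426 was the lowest of the 3. Over the 9 type IV probe sets, null_426 was below both other null arrays in 5 and above both in 4. Col3a1 and Col5a2, also neighbours on chromosome 1, both had their lowest value in null_426, as did Col6a1 and Col6a2, neighbours on chromosome 10. The last measured pair, Col9a1 and Col19a1 on chromosome 1, had its lowest values in null_60 and CONTROL_406. In null minus control, Col3a1 (-0.13) and Col5a2 (-0.14) were the only pair of the 6 with the same sign. Col9a1 (-0.21) and Col19a1 (0.20), for example, had opposite signs.

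**Figure D3:**
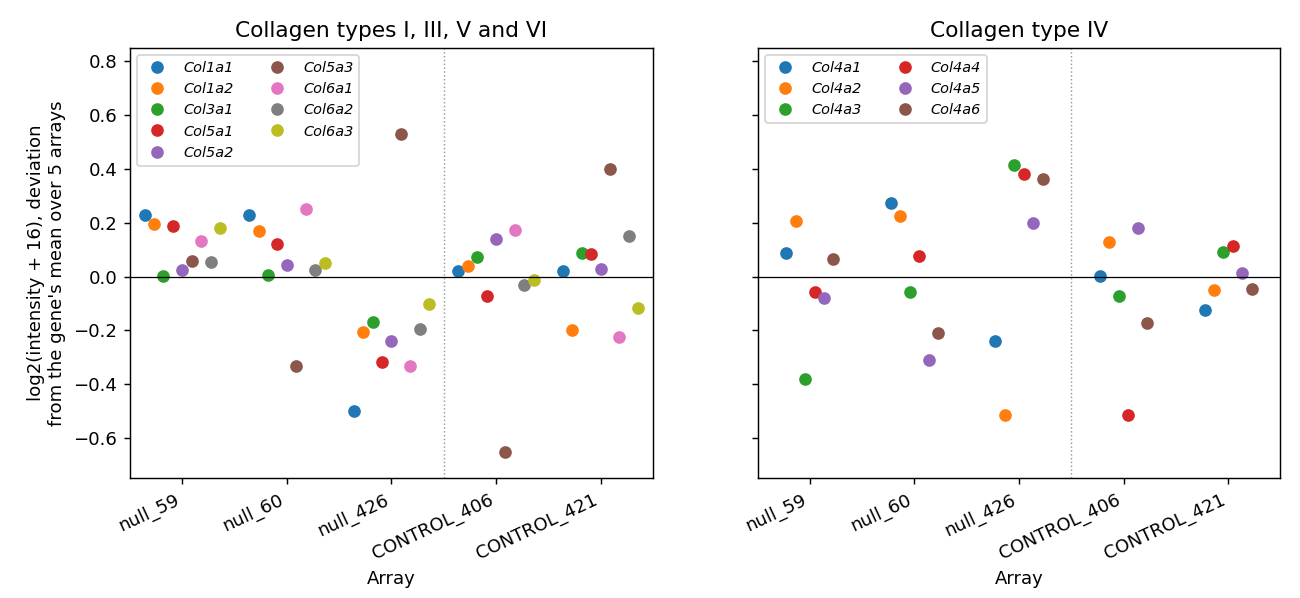
Deviation of each gene from its own mean over the 5 arrays, for the chains of collagen types I, III, V and VI (left) and IV (right), by the brightest probe set of each gene. The y axis is in log2(intensity + 16) after quantile normalisation, each point is 1 array, and the dotted line separates the 3 HNF4 null arrays from the 2 control arrays. In null_426 the points of types I, III, V and VI lie below 0 except that of Col5a3, and in type IV those of Col4a1 and Col4a2 lie below 0 and those of the other 4 chains above.

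Markers of other cells moved over the same arrays. The summed intensity of 7 fibroblast markers was 3430.31, 3510.08 and 2296.43 in null_59, null_60 and null_426, against 3992.96 and 2875.55 in CONTROL_406 and CONTROL_421. The sum was lowest in null_426, where Postn had 378, against 957 in CONTROL_421. By the median deviation from each gene's mean, CONTROL_421 (-0.289) was as low as null_426 (-0.276). The lowest value was that of null_426 in 3 of the 7, and that of CONTROL_421 for Pdgfra, Dcn, Lum and Fbln1. Of the 7 markers, 3 lay above 0 and 4 below in null minus control. Postn, a matrix protein gene of fibroblasts, had an unadjusted p under 0.05 (log2 difference -0.71, adjusted p = 0.615). The sum of the 6 colon epithelium markers (2966.84) was also lowest in null_426. So was that of 8 endothelial markers, at 1217.88 against 1236.14 in CONTROL_421, but null_426 was the lowest array in only 2 of the 8. Of the endothelial markers, 7 lay above 0 and 1 below in null minus control (median log2 difference 0.22). The 8 smooth muscle markers summed to 15040.8 to 16594.7 in null and 12521.4 to 15444.6 in control arrays, lowest in CONTROL_421. All 8 lay above 0 in null minus control, and 3 (Tagln, Myh11 and Myocd) had an unadjusted p under 0.05. In that direction 2.82% of all probe sets were called. The 2 controls lay apart for Tagln (2510 in CONTROL_406, 1628 in CONTROL_421) and Myh11 (1992 and 1144). The 6 pericyte markers summed to 1086.11 to 1341.49 in null and 1022.79 to 1404.27 in control arrays. Summed over 3 bone markers (1584.76) and 6 markers of enteric neurons and glia (1167.28), null_426 was instead the highest array. Most of the bone sum in null_426 came from Sp7 (1032) and Phex (479), and Ibsp had its lowest normalised value on that array. Of the neuron and glia markers, Ret and Tubb3 were highest in CONTROL_406. All 3 mesothelium markers measured lay above 0 in null minus control, summing to 373 to 454 in null and 242 to 368 in control arrays. CONTROL_421 was the lowest array for each of them. Of these, Wt1 had an unadjusted p under 0.05 (log2 difference 0.44, adjusted p = 0.651 by limma), where 2.82% of all probe sets were called higher. Some markers were near 0, as was Myh3 of the skeletal muscle list (-1.99 to 13.2), so the lists do not show which cell types were present. The part of these cells in the collagen values was not tested.

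Collagen chains are hydroxylated and glycosylated in the endoplasmic reticulum, folded with chaperones, exported, trimmed of their propeptides, crosslinked outside the cell, bound by receptors and broken down by proteases. A list of 59 genes of these steps held 45 that could be measured. None passed the adjusted threshold, where 0.124% of all probe sets did. At an unadjusted p under 0.05, 2 were higher in null colons and 0 lower, where 2.82% of all probe sets were higher and 4.33% lower. The median log2 difference over the 45 was -0.01, with 20 above and 25 below 0, against 0.02 over all genes. The 2 genes are 4.44% of the list, against 7.15% of all probe sets in either direction. The count was 0 without null_59 (4.96% of all probe sets), 1 without null_426 or CONTROL_421 (2.22% of the list, against 5.25% and 5.29% of all), and 3 without CONTROL_406 (6.67%, against 10.1% of all).

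**Figure D4:**
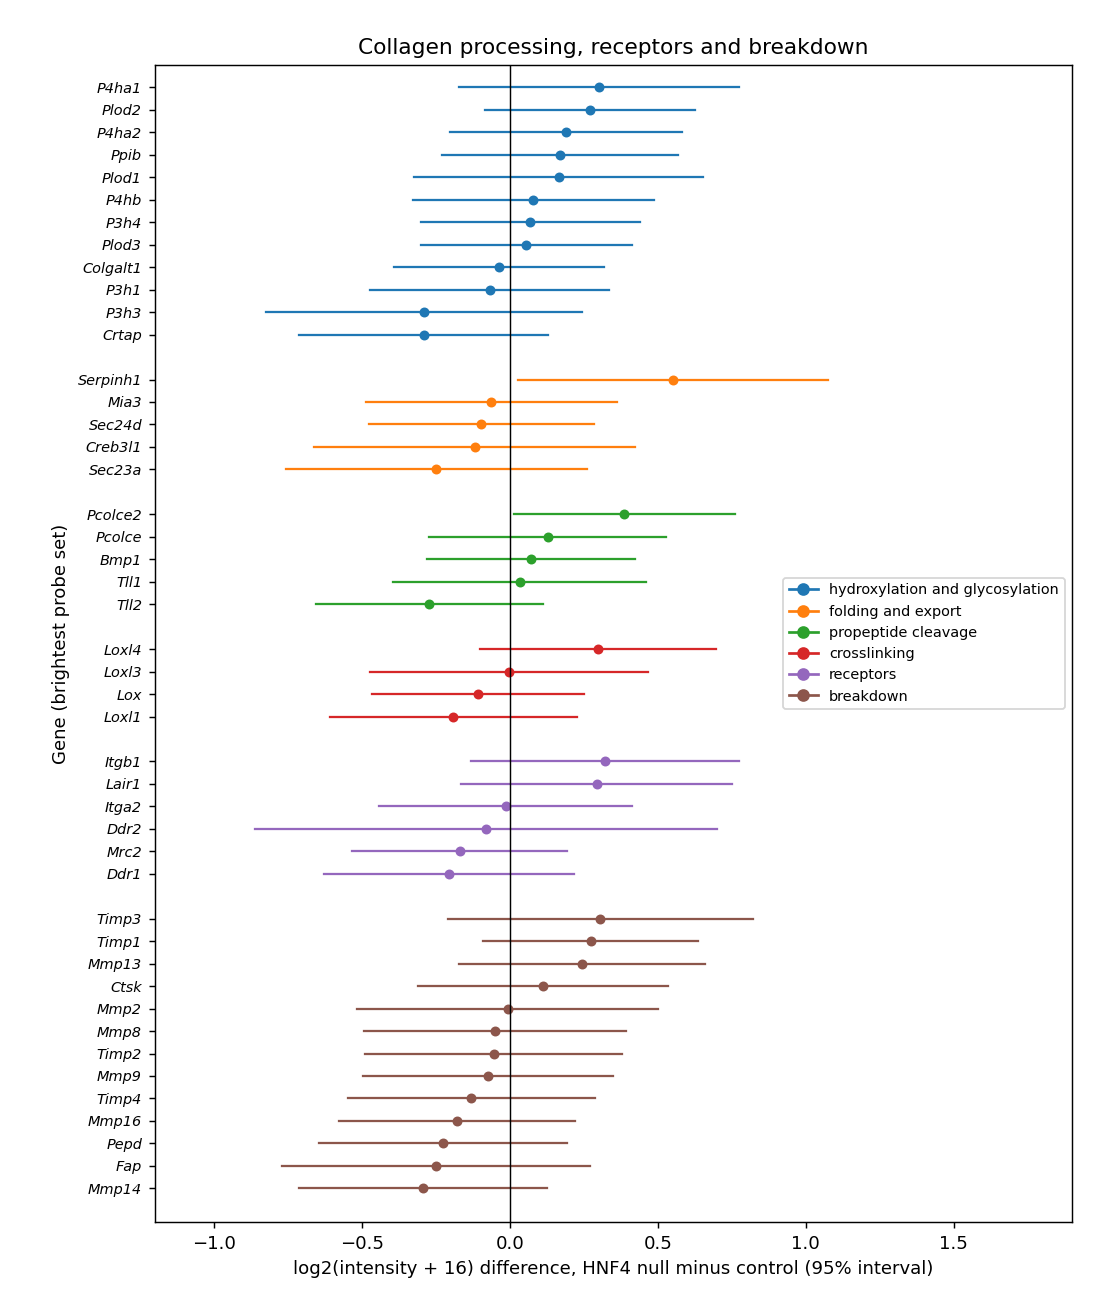
Differences between HNF4 null and control colons for 45 genes of collagen processing, receptors and breakdown, by step. The x axis is the difference null minus control in log2(intensity + 16) after quantile normalisation. Points are coloured by step, bars are limma's 95% confidence intervals, and genes of low signal are not marked apart. The intervals of Serpinh1 and Pcolce2 lie above 0 and those of the other 43 genes cross it.

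The genes at an unadjusted p under 0.05 were Serpinh1 and Pcolce2. Serpinh1 encodes the collagen chaperone HSP47, which binds procollagen in the endoplasmic reticulum. It had 1615, 1416 and 1304 in null_59, null_60 and null_426, against 1397 and 764 in CONTROL_406 and CONTROL_421. CONTROL_421, the array with the highest 3′ to 5′ Gapdh ratio but not the highest actin ratio, was low, and 1 null array was below CONTROL_406 in the deposited values. The part of RNA quality was not tested. The log2 difference was 0.55 ± 0.23 (SE; 1.47-fold, 95% interval 1.02 to 2.11, unadjusted p = 0.0410, adjusted p = 0.690).

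Pcolce2 encodes an enhancer of the protease that removes the C-terminal propeptide. It had 187, 176 and 213 in null_59, null_60 and null_426, against 139.9 and 139 in CONTROL_406 and CONTROL_421. The null arrays were all above both controls, with a log2 difference of 0.39 ± 0.17 (SE; 1.31-fold, 95% interval 1.01 to 1.69, unadjusted p = 0.0428, adjusted p = 0.692). Tll2, a tolloid-like protease of this step, had -0.27 (unadjusted p = 0.144).

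In the remaining steps no gene had an unadjusted p under 0.05. The smallest p in hydroxylation belonged to Plod2, a lysyl hydroxylase (log2 difference 0.27, adjusted p = 0.765), and Crtap, a partner of the prolyl 3-hydroxylase (-0.29, adjusted p = 0.78). In folding and export, Sec23a, a coat protein of secretory vesicles, followed Serpinh1 (-0.25, adjusted p = 0.828). For crosslinking they were the lysyl oxidase-like genes Loxl4 (0.30, adjusted p = 0.767) and Loxl1 (-0.19, adjusted p = 0.835). Among receptors they were Itgb1, the beta chain of the collagen-binding integrins (0.32, adjusted p = 0.777), and Lair1, an inhibitory receptor of leukocytes (0.29, adjusted p = 0.789). For breakdown they were Timp1, an inhibitor of matrix proteases (0.27, adjusted p = 0.767), and Mmp14, a membrane-bound collagenase (-0.29, adjusted p = 0.78). The median difference was 0.07 over 12 genes of hydroxylation and glycosylation, -0.10 over 5 of folding and export, 0.07 over 5 of propeptide cleavage, -0.05 over 4 of crosslinking, -0.05 over 6 receptors and -0.05 over 13 of breakdown.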

How the data were processed

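Gene expression was measured on 5 Affymetrix arrays from total RNA (Qiagen RNeasy mini, biotin label, per the labels' protocols). The deposited table holds 1 linear intensity for each probe set on each array. How the authors summarised, background-corrected and scaled it is not given in the sources used here, and 21 to 58 values per array lay below 0. Of 22690 probe sets, 64 controls of the array maker were left out. GEO's platform annotation gave 20380 of the rest 1 symbol, 691 several and 1555 none, and RefSeq (GRCm38.p6) changed 0 symbols.

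Negative values were set to 0, and log2(intensity + 16), a scale that understates the change of dim genes, was quantile normalised because the array medians spread by 0.114. No filter was used. Fits were made in R 4.3.3 with limma 3.58.1 (a two-sided moderated test from lmFit and eBayes), adjusted by Benjamini-Hochberg over all 22626 probe sets at a threshold of 0.05. The p-values set each difference against the spread between these embryos, moderated over all probe sets. Nothing in the labels speaks of litters or preparations, so whether these differed between the groups cannot be told. With 5 arrays, their number limits the precision.

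The members and lists were chosen with earlier results of these data known. Genes were named by a rule: every fibrillar and basement membrane gene, the 6 other collagens of highest mean intensity, any at an unadjusted p under 0.05, any whose probe sets differed in sign, and the 2 genes of smallest p from each step of collagen processing. Other genes were named where a class, a count or a marker list needed them. Besides leaving out each array, which with a lone control array assumes that it varies as the null arrays do, the alternatives were no normalisation, median centring, another pseudocount (1 or 64), only probe sets at or above the median signal, a variance trend, array weights and averaging a gene's probe sets. The scripts were tested on simulated data. Protein sequences were not used here.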

Additional observations from a re-analysis of the deposited data

How the results depend on the processing

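The count of collagen probe sets past the adjusted threshold was 0 in every setting tried. The count at an unadjusted p under 0.05 was 1, and 0 without dim probe sets, 2 with array weights and 1 to 4 with 1 array left out. Array weights gave null_59 a weight of 3.65 and the other arrays 0.594 to 0.837, and 11.02% of all probe sets then had an unadjusted p under 0.05. Their 2 calls were Col26a1 and a Col9a3 probe set, both lower in null colons, and Col22a1 (0.284) was not among them. The count of separated probe sets was 11, and 6 of 39 (15.4%) without dim probe sets and 13 to 27 with 1 array left out. Of all probe sets at or above the median signal, 24.8% were separated and 7.79% had an unadjusted p under 0.05. The count of processing, receptor and breakdown genes was 2, and 1 in the table as deposited, 0 with median centring, 1 with a pseudocount of 1, 5 with array weights (11.1% of the list, against 11.02% of all probe sets) and 0 to 3 with 1 array left out. The fibrillar median was 0.0144, and -8e-04 with median centring, -0.0099 without dim probe sets, 0.111 with array weights, 0.0635 with the mean of probe sets and -0.0828 to 0.0455 with 1 array left out. The basement membrane median was 0.0413, and -0.0212 with median centring, 0.101 without dim probe sets, 0.108 with array weights, 0.0703 with the mean of probe sets and -0.0038 to 0.124 with 1 array left out. The median of the other collagens was 0.0432, and -0.0198 with median centring, 0.118 with array weights and -0.0125 to 0.134 with 1 array left out. The cause of these shifts was not tested, except that fewer arrays separate more probe sets by construction.

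Of the 36 genes, 19 kept the sign of their difference in every setting that gave them a value, and 26 of the 36 had one without dim probe sets. Differences of the other sign, none of them past the threshold, were 0.0453 for Col4a3 and -0.05 for Col6a1 in the table as deposited. With median centring they were -8e-04 for Col1a2, -0.0417 for Col4a1, -0.0961 for Col6a1, -0.0223 for Col6a3 and -0.0198 for Col14a1. With array weights they were 0.121 for Col1a1, 0.111 for Col5a1, 0.0843 for Col4a2 and 0.0488 for Col15a1, and with the mean of probe sets 0.112 for Col1a1, -0.0703 for Col1a2, 0.169 for Col5a1 and -0.0399 for Col9a3. With 1 array left out, the ranges that crossed 0 were -0.158 to 0.211 for Col1a1, -0.266 to 0.389 for Col2a1, -0.107 to 0.151 for Col5a1, -0.316 to 0.731 for Col5a3, -0.185 to 0.217 for Col11a2. They were -0.0134 to 0.236 for Col4a1, -0.192 to 0.179 for Col4a2, -0.232 to 0.169 for Col4a3, -0.192 to 0.0684 for Col15a1, -0.152 to 0.239 for Col6a1. The last were -0.0478 to 0.0704 for Col8a1, -2e-04 to 0.276 for Col9a3, -0.179 to 0.0162 for Col13a1, -0.0894 to 0.15 for Col14a1, -0.307 to 0.127 for Col16a1. No paired analysis was possible because the labels give no pairing. Signals below the median of all probe sets, as for Col11a1, Col17a1, Col22a1 and Col26a1, limit what can be said of those genes.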
